A study of Mus musculus with 2 samples.

Results

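The adenylate cyclase family was examined in mouse primordial germ cells (PGCs), the precursors of eggs and sperm, with and without over-expression of Klf9. The members were the genes named Adcy1 to Adcy10, taken by symbol. All 10 were found in both libraries, among 23647 gene symbols in the control library and 23689 in the Klf9-OE library, and each had a single row in each. E13.5 PGCs were sorted by GFP from embryos of MCH females and Oct4-deltaPE-GFP males, infected with a lentivirus at an MOI of 5 and cultured for 1 day before RNA was taken. The control library came from cells that received a control lentivirus, and the Klf9-OE library from cells that received the Klf9 coding region in a CSII-EF vector. Both kinds of cell carried the GFP transgene and had the same day of culture. The labels describe the medium as containing bFGF, whereas the text of the study describes RNA sequencing without it. Embryos of both sexes were dissected, and the sex of the sorted cells and the control insert used for sequencing are not given in the sources used here. There was 1 library per condition, so no difference has a replicate check, and the intervals given hold only how well each library was estimated.

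Adenylate cyclases make cAMP from ATP and thereby link G protein-coupled receptors to protein kinase A. G alpha s stimulates the membrane-bound enzymes, while G alpha i inhibits some of them and leaves others largely untouched. In PGC culture, forskolin, a plant compound that activates membrane-bound adenylate cyclases, is used to raise cAMP and to favour the formation of embryonic germ cells. The genes were grouped by the known regulation of their products. Adcy5 and Adcy6 are the classic G alpha i-inhibited enzymes. Adcy1, Adcy3 and Adcy8 are stimulated by calcium and calmodulin, and Adcy2, Adcy4 and Adcy7 by G beta gamma in the presence of G alpha s. Adcy9 responds weakly to forskolin and stands alone here. Adcy10 encodes the soluble enzyme, which responds to bicarbonate and calcium rather than to G proteins.

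Levels were the FPKM deposited by the authors, that is, fragments per kilobase of transcript scaled to the mapped reads of the library, which for single-end reads equals RPKM. Because FPKM is per length, levels of different genes can be compared as far as the transcript length used for each is right. All members except Adcy4 had transcripts assembled from the reads in at least 1 library. The length used for these is not given in the sources used here. Values in brackets after the FPKM of a gene are the bounds of the Cufflinks 95% interval. A gene is called higher or lower where these did not overlap. Klf9 itself had an FPKM of 2.27 (1.97 to 2.57) with the control virus and 80.8 (77.0 to 84.5) with Klf9-OE. The 10 germ cell markers examined, among them Ddx4, Dazl, Pou5f1 and Dppa3, ranged from 5.42 to 387 in the control library and from 4.34 to 378 with Klf9-OE. With Klf9-OE, 8 of them were lower and 1 (Dazl) was higher, against 20.2% lower and 14.8% higher among the 12503 genes that reached an FPKM of 1 in either library and had a single row in each. The summed FPKM of lists drawn up as markers of other cells was higher in Klf9-OE PGCs for 3 of 4 lists. It went from 28.4 to 40.9 for 7 endothelial markers, from 20.8 to 26.2 for 7 markers of supporting cells and from 3.65 to 6.56 for 5 interstitial and Leydig markers. By intervals, 2 endothelial markers were higher (Pecam1 and Cdh5) and 1 lower (Tek, from 0.735 to 0.439). Pecam1, the highest of its list, went from 16.8 to 24.2 and made up most of the endothelial sum in both libraries. Whether its reads came from endothelial cells or from the PGCs themselves was not tested. Of the supporting markers 3 were higher (Amh, Wt1 and Gata4) and 1 lower (Sox9, from 2.04 to 1.09). In the interstitial list 1 marker (Star, listed at 0 in the control library) was higher. The intervals of the remaining markers of these 3 lists overlapped. The Leydig markers Cyp17a1 and Hsd3b1 were below 0.1 in both libraries. The macrophage and blood list (7 genes) went from 5.77 to 5.69 with 1 higher and 1 lower, and its markers Ptprc, Adgre1 and Fcgr1 were below 0.1 in both. In these bulk libraries, fewer cells of a type and less RNA per cell cannot be told apart.

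KLF9 binds GC-rich boxes in promoters, so the letters around the starts of the family are shown before the values. RefSeq promoter windows of GRCm38.p6 (250 bases before and 50 after the start) were found for 8 of the 10 members, and none was used for Adcy6 and Adcy8. A GC box, GGGCGG or its reverse complement CCGCCC, occurred in at least 1 window of 6 of the 8 members. It occurred in 38.2% of the 27025 genes of the table, and in 69.3% of the 9204 genes that reached an FPKM of 1 in either library. Windows of Adcy4 and Adcy10 held none. The windows below, 30 bases on the strand of the gene, hold the last box before the start with 12 bases on each side of it. Capitals mark each GC box. They are shown so that the 6 promoters can be compared by eye.
Adcy2 (chr13:68999596-68999625, minus strand): cgcgggccggcgCCGCCCctgcgcggaggc
Adcy3 (chr12:4133354-4133383, plus strand): ggcggggaggggCCGCCCgcctcctggggc
Adcy9 (chr16:4420587-4420616, minus strand): gtCCGCCCggccCCGCCCcgctgcagcccc
Adcy5 (chr16:35154804-35154833, plus strand): gagcggcgcgggGGGCGGggaggcggcggg
Adcy1 (chr11:7063380-7063409, plus strand): ctgccggggcgcGGGCGGgcgccagtgcgc
Adcy7 (chr8:88294162-88294191, plus strand): tcaatgatgaaaGGGCGGggcttatttggg
The boxes shown for Adcy2 and Adcy9 begin 72 and 106 bases before the start, and those of Adcy3, Adcy5, Adcy1 and Adcy7 begin 31, 48, 41 and 30 bases before it. The start here is that of the RefSeq window, which can differ from the start of the locus given below. The stretch shown for Adcy7 lies inside its locus, which has 4 annotated starts. That of Adcy3 lies inside its locus by the positions in the control library. The window of Adcy5 ends at 35154913, before the start of its locus. Adcy9 and Adcy1 held 5 boxes each over the whole window, Adcy5 held 4, Adcy2 held 3, and Adcy3 and Adcy7 held 1 in 1 of their windows. The window of Adcy10 was 49.3% G and C, and that of Adcy5 was 79%. A match of letters does not show that a factor binds there.

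Among the members, Adcy3 had the highest level in both libraries and Adcy4 the lowest. The order of levels in control PGCs was Adcy3, Adcy7, Adcy9, Adcy6, Adcy2, Adcy5, Adcy1, Adcy10, Adcy8 and Adcy4. Adcy3 stood apart from the next gene by 2.12-fold. Adcy7, Adcy9 and Adcy6 followed within 1.12-fold of each other, with overlapping intervals between neighbours. Adcy2, Adcy5 and Adcy1 formed a lower group whose neighbours also overlapped. In Klf9-OE PGCs the order was the same except that Adcy2 came between Adcy9 and Adcy6. There the intervals of Adcy9 and Adcy2 overlapped, and those of Adcy2 and Adcy6 did not. Among the 18742 genes above 0 in at least 1 library, Adcy3 had a higher level than 63.8% in control PGCs and than 61.1% with Klf9-OE. Of the members, 7 had an FPKM of at least 1 in both libraries.

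**Figure D1:**
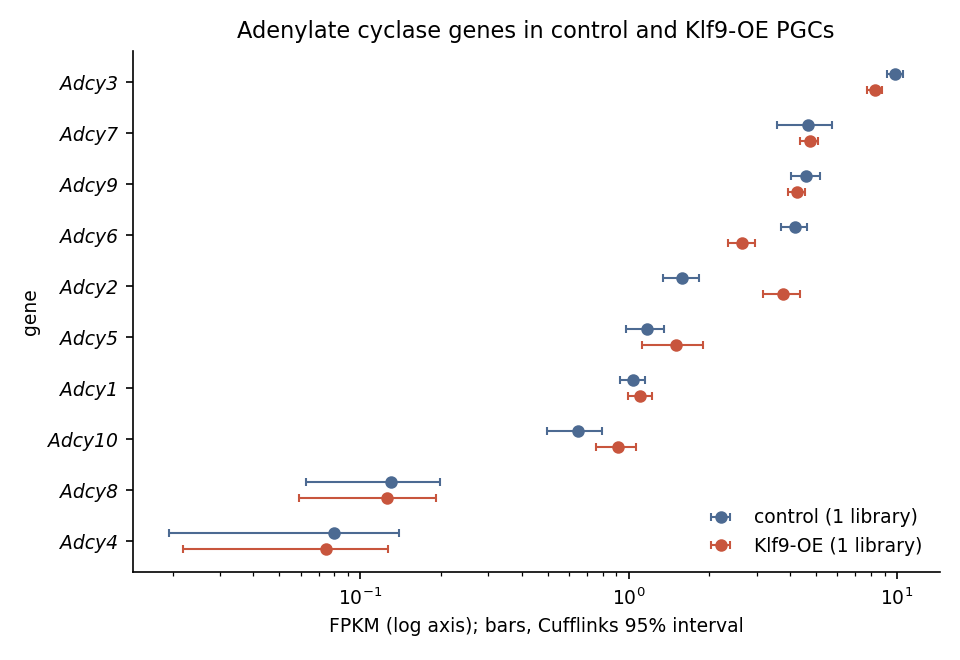
FPKM of each adenylate cyclase gene (log axis) in the control and the Klf9-OE library, with bars for the Cufflinks 95% interval. The points of Adcy2 (1.59 and 3.76) and Adcy6 (4.16 and 2.65) lie apart, those of Adcy3 lie close with bars that do not meet, and the bars of the other genes meet.

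The genes that encode G beta gamma-stimulated enzymes included the widest difference of the family. Adcy2, on chromosome 13 from 68620043 to 68999541 on the minus strand (mm10, positions as in the control library), encodes a cyclase on which G beta gamma and G alpha s act together. Its FPKM was 1.59 (1.34 to 1.83) in the control library, against 3.76 (3.18 to 4.35) in the Klf9-OE library. With a ratio of 2.37 (interval 1.90 to 2.96) it was the 1 member of 10 past 2-fold upwards, and 0 members passed 2-fold downwards. Over all 18742 genes, 9.82% passed 2-fold upwards and 9.43% downwards, so the counts in the family are near those of all genes. Among the 12565 genes that reached an FPKM of 1 in either library, these shares were 3.93% and 3.79%. Of the 7 members at that level, 1 passed upwards and 0 downwards. The reads implied by the widths of the Adcy2 intervals were nearly equal (166 and 165). These are not counted reads. Adcy2 had assembled transcripts in both libraries, and for most genes with such transcripts this measure did not follow FPKM and depth. Whether the read number of Adcy2 differed between the libraries is therefore not known. An exon of Adcy2 overlaps the antisense gene Gm35161, whose reads cannot be told apart from its own, since the library kit does not keep the strand.

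The other genes of this class lay at opposite ends of the range of levels. Adcy7, whose product is prominent in blood cells, lies on chromosome 8 from 88272403 to 88329962 (plus strand). It had an FPKM of 4.65 (3.56 to 5.74) in control PGCs against 4.72 (4.36 to 5.09) in Klf9-OE PGCs, a ratio of 1.02 (0.793 to 1.30). Adcy4, on chromosome 14 from 55769092 to 55784019 (minus strand), was near 0 in both libraries, at 0.0797 (0.0194 to 0.140) and 0.0746 (0.0219 to 0.127). The intervals of both genes overlapped between the libraries. For Adcy4 a 2-fold difference in either direction was not detectable at this depth, since its ratio of 0.937 had an interval of 0.333 to 2.64.

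Of the G alpha i-inhibited class, Adcy6 was lower in Klf9-OE PGCs and the intervals of Adcy5 overlapped. Adcy6, on chromosome 15 from 98589986 to 98607633 (minus strand), encodes a widely expressed cyclase that G alpha i and calcium both inhibit. Its FPKM was 4.16 (3.70 to 4.62) in control PGCs against 2.65 (2.35 to 2.95) in Klf9-OE PGCs. The intervals did not overlap, and the ratio was 0.637 (0.544 to 0.746). An exon of Adcy6 overlaps the antisense gene Gm29331, which has the same limit of strand. Adcy5, the closest relative of Adcy6 and a major cyclase of striatum and heart, lies on chromosome 16 from 35155636 to 35304549 (plus strand). It was at 1.17 (0.980 to 1.35) and 1.5 (1.12 to 1.89), with intervals that overlapped and a ratio of 1.29 (0.954 to 1.74). The class summed to 5.33 (4.83 to 5.83) in control PGCs against 4.15 (3.67 to 4.64) in Klf9-OE PGCs, a ratio of 0.780.

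Of the calcium-stimulated class, Adcy3 was lower in Klf9-OE PGCs and the intervals of the remaining genes overlapped. Adcy3 encodes the cyclase of olfactory neurons and of primary cilia, and lies on chromosome 12 from 4133075 to 4213524 (plus strand). Its FPKM was 9.86 (9.18 to 10.5) in control PGCs against 8.29 (7.75 to 8.82) in Klf9-OE PGCs, a ratio of 0.841 (0.765 to 0.924). The intervals did not overlap, but they did when the libraries were rescaled to the same summed FPKM, which raises every Klf9-OE value by 0.062 on the log2 scale. The last part of Adcy3 also overlaps exons of Cenpo, a kinetochore gene on the other strand, which was at 8.26 (7.62 to 8.90) and 7.82 (7.24 to 8.39). Reads of the overlap cannot be told apart either.

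Adcy1 and Adcy8 encode the calmodulin-stimulated cyclases best known from neurons. Adcy1, on chromosome 11 from 7063489 to 7178505 (plus strand), was at 1.04 (0.930 to 1.16) and 1.11 (0.991 to 1.22) in control and Klf9-OE PGCs. Adcy8, on chromosome 15 from 64699035 to 64922296 (minus strand), was at 0.130 (0.0627 to 0.198) and 0.125 (0.0592 to 0.192). The intervals of both overlapped. The ratio of Adcy1 was 1.06 (0.913 to 1.23), so its interval held no 2-fold difference, while that of Adcy8 (0.964, 0.460 to 2.02) did.

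Adcy9 and the soluble cyclase did not stand apart by their intervals. Adcy9, on chromosome 16 from 4284886 to 4420498 (minus strand), was at 4.58 (4.01 to 5.15) in control PGCs against 4.22 (3.91 to 4.54) in Klf9-OE PGCs, a ratio of 0.922 (0.799 to 1.07). Adcy10, on chromosome 1 from 165485183 to 165576773 (plus strand), encodes the enzyme known for its role in sperm motility. It was at 0.646 (0.495 to 0.797) and 0.911 (0.755 to 1.07). The intervals of Adcy10 met, although the interval of its ratio of 1.41 (1.05 to 1.88) lay above 1.

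By the intervals, 1 member (Adcy2) was higher and 2 members (Adcy3 and Adcy6) were lower in Klf9-OE PGCs, and 7 overlapped. Over the 18626 genes with a single row in each library, 11.2% were higher and 14.4% lower by this measure. Among the 12503 of them that reached an FPKM of 1, these shares were 14.8% and 20.2%. The counts for the family are near these shares. They were the same when the Klf9-OE intervals were widened by 1.41 times. That widening stands for reads counted in pairs, since 89.9% of 1215 genes with 1 to 9 reads by the width of their interval had an even number in the Klf9-OE library, against 40.1% of 1433 in the control library. The median log2 fold change of the 10 members, on the scale of log2(FPKM + 0.1), was -0.0042, and that over all genes was -0.015.

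**Figure D2:**
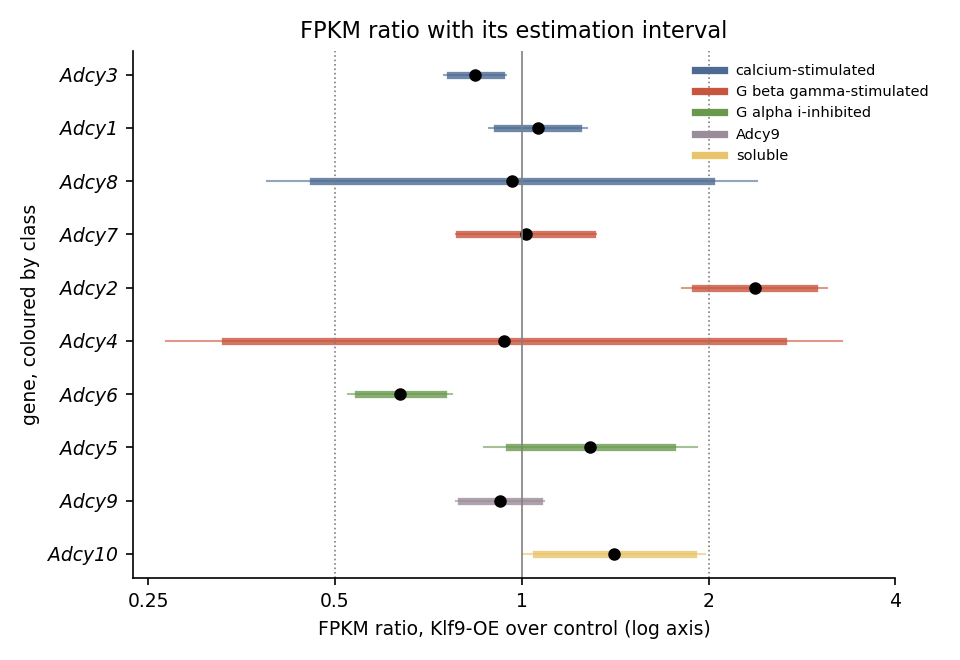
FPKM ratio of Klf9-OE over control for each member (log axis, 1 library each), coloured by class, with thick bars for the estimation interval and thin bars for the interval after widening that of Klf9-OE by 1.41 times. The dotted lines mark ratios of 0.5 and 2. Only Adcy2 (2.37) lies beyond a dotted line, and the bars of Adcy4 and Adcy8 are the widest.

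The summed FPKM of the family was nearly the same in the libraries, and the shift in its make-up rested largely on Adcy2. The interval width of Adcy2 did not follow its FPKM. The sum was 27.9 (26.4 to 29.4) in control PGCs against 27.4 (26.3 to 28.4) in Klf9-OE PGCs, a ratio of 0.981 (log2 -0.03, and 0.03 after rescaling to the same summed FPKM of all genes). Without Adcy2 it was 26.3 (24.8 to 27.8) and 23.6 (22.7 to 24.5), a ratio of 0.897. The G beta gamma-stimulated class made up 22.6% of the sum in control PGCs and 31.3% in Klf9-OE PGCs, and with Adcy2 left out of class and sum, a setting chosen after seeing the data, 18.0% and 20.3%. The G alpha i-inhibited class made up 19.1% and 15.2% (20.2% and 17.6% without Adcy2), and the calcium-stimulated class 39.5% and 34.8% (41.9% and 40.3% without Adcy2). G alpha i also inhibits Adcy1, Adcy3 and Adcy8 to some extent. With these counted in, the inhibited genes made up 58.6% of the sum in control PGCs and 50.0% in Klf9-OE PGCs (62.2% and 57.9% without Adcy2).

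Single genes accounted for most of these shifts. Adcy2 alone went from 5.68% to 13.7% of the summed FPKM, Adcy6 from 14.9% to 9.68% and Adcy3 from 35.3% to 30.3%. The soluble cyclase Adcy10 was a small part of the sum, at 2.32% and 3.33%. The shares describe RNA per length in 1 library each and not enzyme activity. The part that the difference in germ cell and other markers has in them was not tested.

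**Figure D3:**
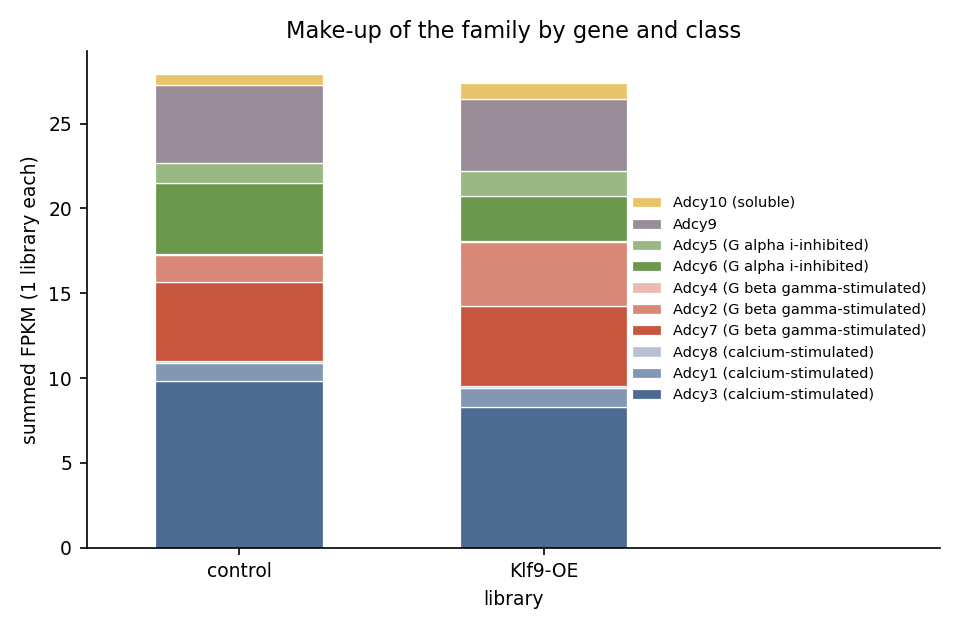
Summed FPKM of the family in the control and the Klf9-OE library, stacked by gene and shaded by class. The bars reach 27.9 and 27.4, with a taller Adcy2 segment and shorter Adcy6 and Adcy3 segments in Klf9-OE.

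How many reads stood behind a value was read from the width of its interval, as the square of 2 times the FPKM over the distance to the upper bound. For genes without assembled transcripts the median over 2647 genes was 1.22 times as many reads with Klf9-OE as with the control virus. If the Klf9-OE reads were counted in pairs, as the widening above allows for, its independent reads are fewer than these numbers. The 1.22 therefore does not show that the Klf9-OE library was deeper. Pairing was not tested. Adcy4, which had no assembled transcript in either library, had 7.0 reads in control and 8.0 in Klf9-OE by this measure. The ratio matched the one expected from FPKM and depth. Adcy8 had 14.9 and 14.3, so the values of both rest on few reads.

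For Adcy2 the width of the interval and the FPKM did not move together. Its interval corresponded to 166 reads in the control library and 165 in the Klf9-OE library, although the FPKM ratio and the depth would give 2.89 times as many. After correction for depth, the log2 ratio of these read numbers was -0.29, against a log2 FPKM ratio of 1.25. Adcy2 had assembled transcripts in both libraries, and the files do not show which transcript model its FPKM was calculated over. Of 8689 genes with an FPKM of at least 1 in both libraries and an assembled row, 35.7% had a read ratio within 10% of the one expected, against 90.9% of 2885 genes without one. Of the 192 genes at that level in both libraries and past 2-fold upwards, 69 (35.9%) had a gap in the same direction at least as wide as that of Adcy2, against 4.16% of all 11574 genes at that level. Genes chosen for a high FPKM ratio favour such a gap. The cause of the gap was not tested.

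The other members showed gaps of both signs. For Adcy6, 322 and 319 reads gave a depth-corrected log2 ratio of -0.30, and for Adcy3, 839 and 948 reads gave -0.11. Before the correction for depth the ratios of these read numbers were 0.99 and 1.13. Like Adcy2, both genes had assembled transcripts in both libraries. Whether their read numbers differed is therefore not known either, and the values are no check of their FPKM. Adcy7 had 72.5 and 664 reads at nearly equal FPKM, and Adcy9 had 263 and 731. Adcy5 went the other way, with 156 and 61.4. Thus 2 of these 3 genes had far more implied reads, and 1 fewer, than their FPKM and the depth would give.

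**Figure D4:**
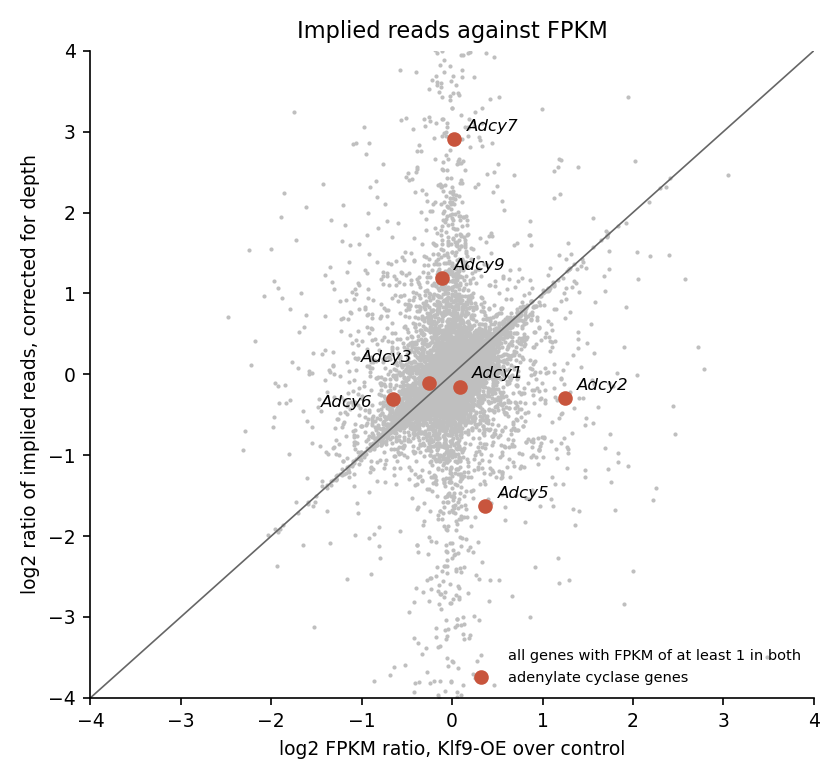
Log2 ratio of the reads implied by the Cufflinks interval, corrected for depth, against the log2 FPKM ratio, for genes with an FPKM of at least 1 in both libraries (grey) and the 7 members among them (red). Genes on the line have interval widths that follow their FPKM. Adcy2 lies below the line at 1.25 and -0.29, Adcy7 and Adcy9 lie above it, and 459 genes fall outside the axes.

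Of the G proteins upstream of the cyclases, neither stimulatory gene differed by its interval. Gnas, which encodes G alpha s, was at 61.4 (58.4 to 64.4) in control PGCs against 60.8 (57.3 to 64.2) in Klf9-OE PGCs, and its olfactory relative Gnal was at 0.825 and 0.809. Of the 5 genes of the inhibitory class, 1 was lower, Gnaz, which went from 10.9 (10.1 to 11.7) to 8.82 (8.14 to 9.49). Gnai2, the most abundant, was at 68.4 and 68.7, Gnai3 at 39.5 and 38.6, Gnao1 at 3.91 and 3.63, and Gnai1 at 1.92 and 2.17, all with overlapping intervals. Of 15 G beta and gamma genes, 4 were higher (Gng2, Gng3, Gng8 and Gngt2) and 2 were lower (Gnb1 and Gng5). Over all genes with a single row in each library, 11.2% were higher and 14.4% lower. Gng3 and Gng8 were at 0 (0 to 0) in the control library, so any Klf9-OE interval above 0 counts as higher. Their Klf9-OE levels were low, at 0.522 and 0.416. Gnb2 and Gng13 were listed but could not be compared. Gnb1, the most abundant of them, went from 377 (365 to 389) to 245 (238 to 252), a ratio of 0.650. Gngt2 went from 10.1 (8.04 to 12.3) to 21.3 (18.5 to 24.1).

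Among the anchors that hold cyclases near protein kinase A and the chaperones of G alpha, 2 of 5 were lower (Akap9 and Akap12) and none higher. Akap12 went from 24.4 (23.4 to 25.4) to 17.3 (16.7 to 17.9). Of the bicarbonate-handling genes, which supply the activator of Adcy10, 1 of 6 was higher (Slc4a7, a bicarbonate importer) and 1 lower (Slc4a2, an anion exchanger). Slc4a2 went from 14.0 (13.2 to 14.8) to 11.4 (10.7 to 12.1). Slc4a7 went from 4.89 (4.54 to 5.25) to 5.77 (5.38 to 6.17). The guanylate cyclases, which make cGMP, had 1 of 8 genes higher and none lower. Npr1, the natriuretic peptide receptor and the most abundant, was at 12.4 (7.29 to 17.4) and 10.9 (9.80 to 12.1). The higher gene was Gucy1b3, a subunit of the soluble enzyme, which went from 0.989 (0.764 to 1.21) to 1.52 (1.27 to 1.78).

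Downstream of the cyclases, 2 of 16 cAMP phosphodiesterase genes were higher (Pde2a and Pde7a) and 2 lower (Pde4b and Pde8a). Pde2a, which encodes a cGMP-stimulated enzyme, went from 1.47 (1.22 to 1.72) to 4.89 (4.44 to 5.33), a ratio of 3.32. Pde8a, the highest on average, went from 18.6 (17.4 to 19.8) to 16.2 (15.2 to 17.1). Pde4c had the lowest log2 fold change of the list (-1.34, from 2.57 to 0.951), but its control interval (0 to 5.72) was so wide that the libraries overlapped. Of 8 genes of protein kinase A and its inhibitors, 2 were lower (Prkar2b and Pkig) and none higher. The catalytic subunit gene Prkaca was listed too, but it lacked a row under its own symbol in at least 1 library and was not compared. Prkar2b, a regulatory subunit, went from 73.2 (69.2 to 77.2) to 52.1 (49.1 to 55.1). Prkar1a, the most abundant regulatory subunit, was at 85.4 and 89.2, and the inhibitor gene Pkia at 0.846 and 1.06, with overlapping intervals.

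Of 9 other cAMP effectors, 1 was lower, the pacemaker channel gene Hcn4, and none was higher. Hcn4 went from 11.4 (10.6 to 12.2) to 7.09 (6.60 to 7.58). Of 14 CREB factors and cAMP-responsive genes, 1 was higher (Crtc2, a CREB coactivator) and 2 lower (Per1 and Sik1). Per1 went from 16.5 (15.6 to 17.4) to 11.8 (11.1 to 12.4). The most abundant, Atf1, was at 38.1 and 40.9, and Nr4a2, a cAMP-responsive nuclear receptor gene, at 0.747 and 1.08, both with overlapping intervals. Of the cAMP exporters, Abcc4 was lower, at 18.9 (18.0 to 19.7) and 17.1 (16.3 to 17.9), and Abcc5, at 15.9 (15.0 to 16.8) and 11.9 (8.30 to 15.6), overlapped.

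Over all 90 of these pathway genes, 9 (10%) were higher and 14 (15.6%) lower by their intervals, close to the 11.2% and 14.4% of all genes. Their median log2 fold change was -0.038. The medians of the separate lists lay between -0.27 for the 2 cAMP exporters and 0.10 for the G beta and gamma genes.

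**Figure D5:**
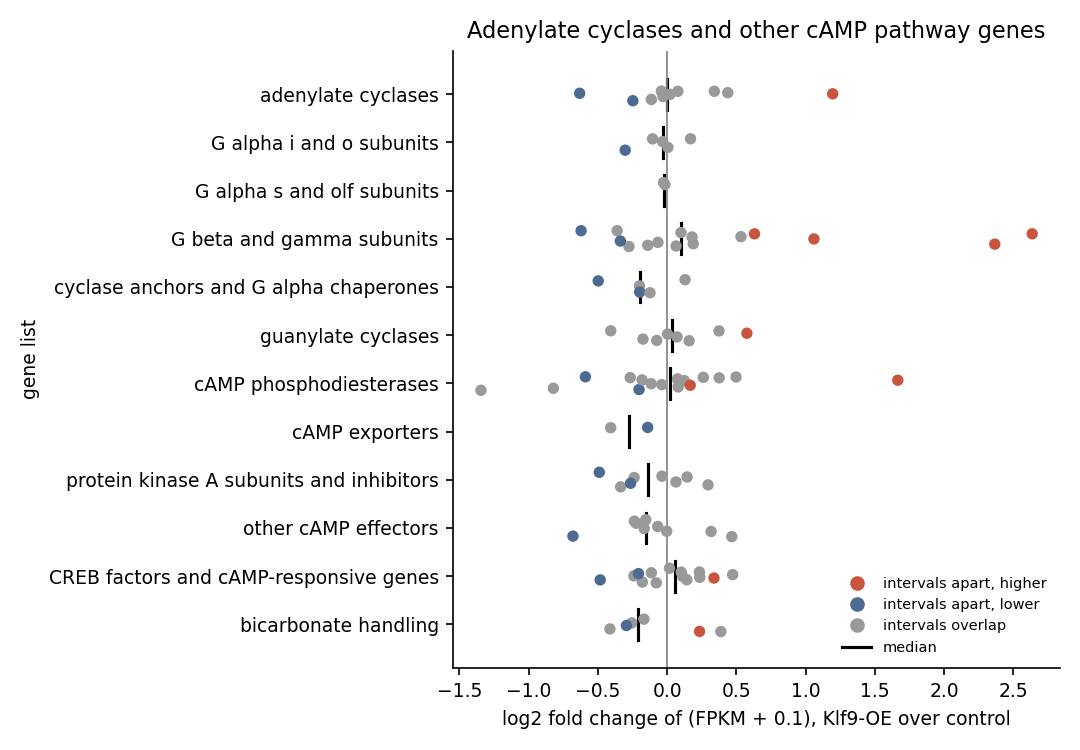
Log2 fold change of FPKM + 0.1 for the adenylate cyclases and 11 lists of other cAMP pathway genes, 1 point per gene, coloured where the intervals of the gene lay apart, with a black bar at the median of each list. The points of most lists lie on both sides of 0. The points farthest to the right, Gng3 and Gng8, are listed at 0 in control PGCs.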

How the data were processed

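RNA-seq was done on 1 library per condition. Single-end reads of 51 bases were aligned by the authors to the mouse genome (mm10) using TopHat2 and Bowtie. Per the file headers, they deposited the FPKM of each locus as Cufflinks estimated it, with the bounds of its 95% interval. Transcripts were also assembled per library, which can change the model behind a value. Versions of these tools are not given in the sources used here, and Cuffdiff results were not used.

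FPKM was summed over loci of the same symbol. Genes with an FPKM above 0 in at least 1 library were compared by ratio with no pseudocount and by overlap of intervals. Listed genes that lacked a row under their own symbol in a library, or were at 0 in both, were left out. Among pathway genes these were Gnb2, Gng13, Ric8a, Gucy1a1, Gucy1b1, Gucy1a3, Gucy2d, Prkaca and Car14. Among markers they were Pdgfra, Insl3, Hba-a1 and Hbb-bt. Ratio intervals combine the relative errors of the libraries. Bounds of summed FPKM are not Cufflinks intervals. They combine the upper half-widths of the members as the root of their summed squares, which takes their errors as independent. For log2 fold changes, 0.1 was added to each FPKM, so that those of low genes come out too small. The files hold no read totals, so depth is known only from interval widths. No test was possible with 1 library per condition. The steps were tested on simulated data. These covered only genes with a single annotated start and no assembled transcript in either library, and Adcy4 is the only member of that kind. The calls and implied reads of the other members were thus not covered.

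The members and lists were chosen with earlier results of these data known. The genes named were all members, Klf9, the G alpha s and i subunits and, of each list, the gene with the highest mean FPKM and, among genes that reached an FPKM of 1, the largest rise and fall on the log2 scale. Of genes outside this rule, those whose intervals did not overlap were named where a count was 5 or fewer, after their values were seen. 1 further list is not reported here. Alternatives were pseudocounts of 0.01 and 1, an FPKM minimum of 1 or above 0 in both, rescaling to the same upper quartile or sum, a ratio of 1.5, widened Klf9-OE intervals and the highest locus per symbol. Calculations used Python 3.11.15, numpy 2.4.6, pandas 2.3.3 and matplotlib 3.10.9. Gene models were from GENCODE (mm10) and promoters from RefSeq (GRCm38.p6).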

Additional observations from a re-analysis of the deposited data

Results flagged for a closer look

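Transcribed loci with no gene name were left out of every comparison. Some lay inside 2 members and were more numerous in the Klf9-OE library. Inside Adcy3 there were 6 such loci in Klf9-OE and 2 in control, with an FPKM between 1.64 and 6.53 in Klf9-OE. None overlapped an exon of Adcy3, and 1 of the control loci overlapped an exon of Cenpo. Inside Adcy10 there was 1 such locus in Klf9-OE and 0 in control. It lay on chromosome 1 from 165576136 to 165576461, over an exon of Adcy10, at an FPKM of 3.37 (95% interval 1.57 to 5.17), which is above the 0.911 of Adcy10 itself in that library. Over the whole series the Klf9-OE library had 15127 loci without a name and the control library 6482. The part of this surplus in the loci inside Adcy3 and Adcy10 was not tested.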

How the results depend on the processing

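All 3 members with intervals that did not overlap (Adcy2, Adcy3 and Adcy6) kept their direction under both rescalings. These raised every Klf9-OE value by only 0.0063 (upper quartile) and 0.062 (sum) on the log2 scale. The other pseudocounts cannot change a direction. The highest locus per symbol gave the same values, since each member had a single row in each library. With a pseudocount of 1, 0 members were at least 2-fold higher, and with a ratio of 1.5, 1 member (Adcy6) was lower. With the same summed FPKM, 1 member was lower by its interval, since Adcy3 then overlapped. With the wide class, the share of G alpha i-inhibited genes fell by 8.67 percentage points, against 3.91 with Adcy5 and Adcy6 alone. The read numbers implied by the intervals, an alternative chosen after seeing the data, gave Adcy2 a log2 ratio of -0.29 in place of 1.20 on the scale with a pseudocount, and the cause was not tested. Adcy4 and Adcy8 rest on too few reads to show a 2-fold difference. No paired analysis was possible because each condition had 1 library, and no library could be left out.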

Other observations

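Adcyap1 and Adcyap1r1, chosen after their values were seen, share the prefix of the family but encode PACAP, a peptide that activates adenylate cyclase through its receptor, and that receptor. Adcyap1 (chromosome 17, 93199422 to 93205489) was at an FPKM of 0.404 (95% interval 0.228 to 0.580) in control PGCs against 0.347 (0.199 to 0.495) in Klf9-OE PGCs. Adcyap1r1 (chromosome 6, 55451978 to 55501455) was at 1.12 (0.945 to 1.29) and 1.39 (1.22 to 1.57), a ratio of 1.25. The intervals of both overlapped between the libraries.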
